A study of Homo sapiens with 8 samples.

Results

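The SMN complex and the snRNP recycling factor SART3 were examined through the single guide RNAs (sgRNAs) that cut their genes in a genome-wide knockout screen. The 9 genes were GEMIN2, GEMIN4, GEMIN5, GEMIN6, GEMIN7, GEMIN8, DDX20, STRAP and SART3, and every sgRNA assigned to these symbols in the count table was taken. Each gene had 6 sgRNAs, which gave 54 of the 111627 sgRNAs against 18913 genes. The cells were MB157R, a GSI-resistant triple-negative breast cancer line that stably expressed Cas9 and carried the human GeCKOv2 library, parts A and B together. GSI is a γ-secretase inhibitor, a drug that blocks the cleavage that activates Notch receptors. GSI libraries came from 3 cultures kept with LY3039478 at 10 µM until day 14, and DMSO libraries from 3 cultures kept with the solvent alone for the same time. T0 libraries came from 2 aliquots taken before treatment. All 8 libraries descend from 1 transduced and puromycin-selected pool of 1 resistant line, so the replicates are parallel cultures of that pool and not separate transductions. The p-values of single sgRNAs measure only the spread between such cultures or aliquots. Those of genes compare the ranks of these sgRNA p-values with random draws, and treat the sgRNAs of a gene as independent.

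Spliceosomal small nuclear ribonucleoproteins (snRNPs) carry out the removal of introns from precursor mRNA. In the cytoplasm the SMN complex, built on the SMN protein, places a ring of Sm proteins on newly exported U1, U2, U4 and U5 snRNAs, which then return to the nucleus. SART3 acts at a later step, in the nucleus, where it brings U4 and U6 snRNPs together again after each round of splicing. An sgRNA that inactivates a gene needed for growth is lost from a dividing culture, so its count falls between T0 and day 14. A count stands for the cells that carry the sgRNA, and neither the protein nor splicing was measured.

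The libraries held 12.1 to 18.2 M counts (M, 1e+06), with a median of 66 to 112 counts per sgRNA. In GSI replicate 1, 1 sgRNA against VPS33B took 38.8% of all counts and left the lowest median. SgRNAs at a count of 0 made up 0.738% to 2.40% of the GSI libraries, 2.64% to 3.94% of the DMSO libraries, and 5.12% and 11.5% of T0 replicates 1 and 2. The T0 aliquots differed from each other by more than 4-fold for 33.5% of all tested sgRNAs, and for 19 of the 51 tested sgRNAs of the 9 genes (37.3%), counted on the normalized count plus 1. Of the 54 sgRNAs, 51 had a mean raw count of at least 10 and were tested. The other 3, of GEMIN6, DDX20 and SART3, had low counts in every library and are left out of all folds. Counts below are normalized to library size with median-ratio factors, and each gene is summarised by the median over its tested sgRNAs of the log2 fold change.

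SgRNAs against the 9 genes were, as a group, less abundant at day 14 than at T0 in both arms. In GSI against T0 the median over the 9 genes was −1.51 on the log2 scale, with −0.02 over all genes. All 9 medians were negative, beside 51.3% of all genes, though GEMIN2 was at −0.05 and GEMIN6 at −0.01. Without T0 replicate 2 these 2 genes were positive, at 0.46 and 0.54. Of the 9 medians, 6 lay under −1, a 2-fold difference, which 3.5% of all genes passed. Of 51 sgRNAs, 25 lay under −1 (49.0%), beside 16.1% of all sgRNAs, and 7 lay over 1 (13.7%), beside 18.2%. This contrast is given as a description with no test, because the 9 genes may have been selected on it: GEMIN5 and SART3 were already known to be low there. The median over the 9 genes moved by more than 1.5 times without either T0 aliquot, to −0.89 without T0 replicate 1 and −0.86 without T0 replicate 2. Medians under −1 then numbered 3 of 9 without T0 replicate 1 and 4 of 9 without T0 replicate 2, beside 4.28% and 3.74% of all genes.

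In DMSO against T0, which asks which genes MB157R cells required for growth in solvent alone, the median over the 9 genes was −0.96, with 0.00 over all genes. Medians were negative for 8 of the 9 genes, beside 49.6% of all genes, and 4 lay under −1, beside 4.84% of all genes. Of 51 sgRNAs, 24 lay under −1 (47.1%), beside 17.8% of all sgRNAs, and 6 lay over 1 (11.8%), beside 19.5%. Without GEMIN5 and SART3, 15 of 40 sgRNAs lay under −1 (37.5%). The DMSO contrast shares its T0 libraries with the GSI contrast, so it is not independent of how those 2 genes were chosen. Without T0 replicate 1 the count under −1 was 23 of 51 sgRNAs and without T0 replicate 2 it was 21 of 51, beside 19.9% and 19.0% of all sgRNAs.

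**Figure D1:**
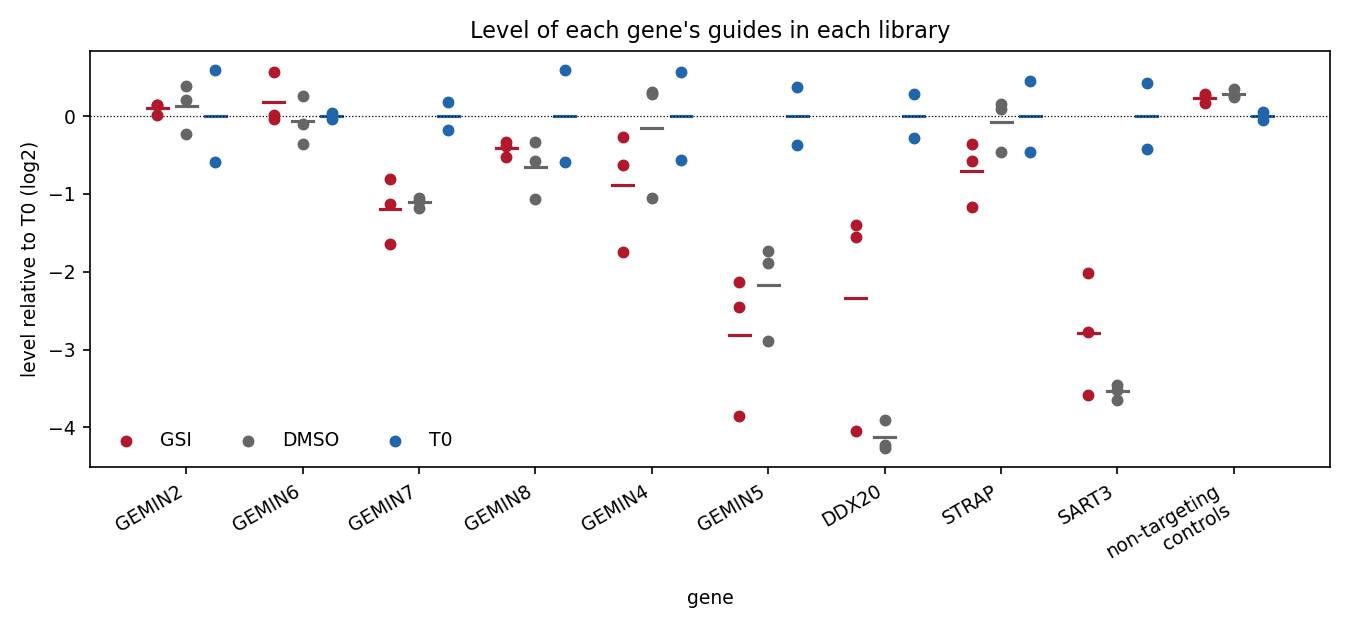
Level of each gene's sgRNAs in each library, as the median over its tested sgRNAs of log2 of the normalized count plus 1, with the T0 mean subtracted. Each point is a library (GSI left, DMSO middle, T0 right) and bars are group means. GEMIN5, DDX20 and SART3 lie under −1 in all 6 libraries of day 14, and the non-targeting controls lie between 0.17 and 0.34.

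None of the 9 genes passed the gene test in DMSO against T0, robust rank aggregation (RRA) of edgeR sgRNA tests with adjustment over all 18570 genes. This test called 5 genes lower (0.0269%) and 0 higher (0%), with 1163 and 981 at an unadjusted p under 0.05. The 5 called genes, GAPDH, NAA10, CENPW, SHQ1 and RPL37A, lie outside the lists used here and are named after their values were seen. At an unadjusted p under 0.05, 5 of the 9 genes were on the low side, GEMIN5, SART3, GEMIN7, DDX20 and STRAP, beside 6.26% of all genes. GEMIN5 and SART3 were already known to be low against the same T0 libraries, so this count is a description and no independent support. With DESeq2 sgRNA tests 0 of the 9 were called and 5 had an unadjusted p under 0.05 on the low side. No single sgRNA of the 9 genes passed either (lowest adjusted p = 0.488, edgeR quasi-likelihood test). That value belongs to a lowered sgRNA of DDX20, at −5.70, and to a raised sgRNA of GEMIN7, at 3.48. How many of all sgRNAs passed was not counted, so this result says little about the 9 genes.

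As a description that does not rest on the fit, the mean normalized count of a gene was compared between libraries. It uses the libraries on which the 9 genes may have been selected, in full for GSI and through T0 for DMSO. That makes it no independent support. Every GSI library lay below both T0 aliquots for 6 of the 9 genes, GEMIN4, GEMIN5, GEMIN7, DDX20, STRAP and SART3, beside 19.2% of all genes. Every DMSO library lay below both T0 aliquots for 4 of the 9, GEMIN5, DDX20, STRAP and SART3, beside 17% of all genes. Among single sgRNAs, all GSI libraries were below both T0 aliquots for 15 of 51, beside 13.8% of all sgRNAs. All DMSO libraries were below both for 18 of 51, beside 13.2%. GEMIN5 gave 5 of those 18 and SART3 gave 4.

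GEMIN5 (chromosome 5, 154887411 to 154938211, GRCh38) encodes the WD-repeat protein that recognises snRNAs and brings them to the SMN complex. Its mean normalized counts per sgRNA were 49.4, 48.9 and 46.5 in GSI replicates 1 to 3, 40.5, 31.7 and 32.7 in DMSO replicates 1 to 3, and 107 and 165 in the T0 aliquots. HGLibB_18892 was its most abundant sgRNA in each GSI culture, at 159, 261 and 110 counts. That sgRNA had 129, 52.4 and 122 with DMSO and 232 and 209 at T0. For the gene means, all 6 cultures of day 14 were below both aliquots. The fold change was −2.82 in GSI against T0, rank 4 from the lowest of 18570 genes, and −2.13 ± 1.97 (SD over 6 sgRNAs) in DMSO against T0 (adjusted p = 0.144, RRA). GEMIN5 was already known to be low in GSI against T0, so its rank there is a description only. Without T0 replicate 2 the DMSO value was −1.32. In GSI against T0, 4 of 6 sgRNAs lay under −1, and in DMSO against T0, 5 of 6 did.

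Among them HGLibA_18916 had 29.6, 4.77 and 10.4 normalized counts with GSI, 7.67, 0 and 11.4 with DMSO, and 141 and 119 at T0. Its log2 fold change was −3.13 ± 1.06 (SE) with GSI and −4.34 ± 1.51 with DMSO. The GEMIN5 sgRNA with a positive fold, HGLibA_18918, was low at the start, with 8.37 and 13.3 counts at T0. It had 39.1, 1.59 and 97.1 counts with GSI and 30.7, 12.6 and 30.8 with DMSO. Its spread among the GSI cultures covered the T0 values.

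DDX20 (chromosome 1, 111754832 to 111775602) encodes the DEAD-box RNA helicase of the complex, also called Gemin3. Its mean counts were 61.7, 17.01 and 39.1 with GSI, 40.1, 19.5 and 22.1 with DMSO, and 137 and 115 at T0. All 6 cultures lay below both T0 aliquots. In GSI against T0 the fold change was −2.46. In DMSO against T0 it was −4.02 ± 2.76 (SD over 5 sgRNAs), rank 4 from the lowest of 18570 genes (adjusted p = 0.196, RRA). Without T0 replicate 1 these values were −0.89 with GSI and −1.85 with DMSO. All 5 tested sgRNAs were negative in both contrasts, 3 under −1 with GSI and 4 with DMSO.

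The DDX20 sgRNAs were of unequal weight. HGLibB_12656 was abundant in both T0 aliquots, with 315 and 226 counts, and had 26.9, 0 and 8.35 counts with GSI and 0, 1.81 and 13.7 with DMSO. Its fold change was −4.56 ± 1.27 with GSI and −5.70 ± 1.29 with DMSO. HGLibB_12655 had 20.2, 10.3 and 44.9 counts with GSI, 17.5, 4.51 and 3.42 with DMSO, and 61.9 and 216 at T0. By contrast HGLibA_12668 was at 99.6 counts in T0 replicate 1 and at 0 in T0 replicate 2, so its fold of −6.69 ± 2.71 with DMSO rests on 1 aliquot. HGLibB_12654 stayed near its T0 level, at −0.06 ± 0.72 with GSI and −0.28 ± 0.89 with DMSO.

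GEMIN4 (chromosome 17, 744421 to 753999) encodes the partner that DDX20 binds within the complex. Its mean counts were 31.9, 30.2 and 35.7 with GSI, 26.7, 64.1 and 63.6 with DMSO, and 78.9 and 46.8 at T0. The GSI cultures were below both T0 aliquots, and the DMSO cultures overlapped them. Its sgRNAs had a median of −1.14 in GSI against T0, where all 6 sgRNAs were negative, and −0.08 ± 0.83 in DMSO against T0 (adjusted p = 1, RRA). The DMSO arm was split, with DMSO replicate 1 at the low GSI level and the other 2 near T0. The GSI value was 0.05 without T0 replicate 1, and the DMSO value then was 0.37.

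GEMIN2 (chromosome 14, 39114285 to 39136973) encodes the protein that binds SMN directly and holds the Sm proteins before they reach the snRNA. Its mean counts were 49.8, 47.6 and 56.2 with GSI, 62.3, 63.9 and 58.3 with DMSO, and 47.7 and 70.4 at T0. Both arms lay within the range of the T0 aliquots, apart from GSI replicate 2, just below it. The median of its sgRNAs was −0.05 in GSI against T0 and 0.12 ± 0.93 (SD over 6 sgRNAs) in DMSO against T0 (adjusted p = 1 on the low side, RRA). Its T0 counts disagreed for 3 of 6 sgRNAs by more than 4-fold. HGLibB_18887, for example, had 149 counts in 1 aliquot and 0.949 in the other.

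GEMIN6, GEMIN7 and GEMIN8 form a submodule with STRAP, in which GEMIN6 and GEMIN7 pair through Sm-like folds and GEMIN8 ties the pair to SMN. GEMIN7 (chromosome 19, 45079195 to 45091518) had mean counts of 99.2, 95.4 and 105 with GSI, 136, 90.1 and 107 with DMSO, and 136 and 214 at T0. The GSI cultures were below both T0 aliquots, and DMSO replicate 1 reached the lower one. The fold change was −1.51 in GSI against T0 and −1.28 ± 2.24 (SD over 6 sgRNAs) in DMSO against T0 (adjusted p = 0.178 on the low side, RRA). Without T0 replicate 2 these were −0.86 in both contrasts, with an adjusted p of 0.947 (RRA) for DMSO. The means over sgRNAs were −0.85 with GSI and −0.72 with DMSO.

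The GEMIN7 sgRNAs had fold changes of both signs. HGLibB_18898 was below T0 in every culture, with 59.3, 32.6 and 24.0 counts with GSI, 59.2, 24.4 and 25.1 with DMSO, and 183 and 239 at T0. HGLibB_18897 was above T0 in all 6 cultures, with 308, 255 and 299.7 counts with GSI and 520.5, 242 and 234 with DMSO, against 39.3 and 19.9 at T0. Its fold change was 3.27 ± 0.58 with GSI and 3.48 ± 0.71 with DMSO. It puts GEMIN7 at an unadjusted p under 0.05 on the high side of DMSO against T0 as well (adjusted p = 0.884, RRA), the only gene of the 9 there.

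GEMIN8 (chromosome X, 14006726 to 14029893) had mean counts of 90.2, 83.7 and 118 with GSI, 95.0, 79 and 107 with DMSO, and 196 and 99.8 at T0. Most cultures were near the lower T0 aliquot and all were below the higher one. The fold change was −0.52 in GSI against T0 and −0.90 ± 0.81 (SD over 6 sgRNAs) in DMSO against T0 (adjusted p = 0.991, RRA). Without T0 replicate 1 both turned positive, to 0.44 with GSI and 0.41 with DMSO. GEMIN6 (chromosome 2, 38751534 to 38785002) had mean counts of 75.4, 113 and 102 with GSI, 61.8, 95.0 and 82.2 with DMSO, and 61.7 and 98.9 at T0. Its fold change was −0.01 in GSI against T0 and −0.28 ± 0.97 (SD over 5 sgRNAs) in DMSO against T0 (adjusted p = 1, RRA), and no sgRNA lay under −1 in either contrast.

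STRAP (chromosome 12, 15882387 to 15903478) encodes the WD-repeat protein known as unrip, which binds the GEMIN6 and GEMIN7 pair and also acts in TGF-β receptor signalling. Its mean counts were 58.4, 40.4 and 45.4 with GSI, 72.7, 79.3 and 64.2 with DMSO, and 118 and 105 at T0. Every GSI culture was below every DMSO culture and every DMSO culture below both T0 aliquots, which held for 5.85% and 17% of all genes. On the scale of median levels the groups overlapped, at −0.36, −0.58 and −1.16 with GSI, 0.08, −0.46 and 0.15 with DMSO, and −0.46 and 0.46 at T0. Its fold change was −1.63 in GSI against T0 and −0.96 ± 2.15 (SD over 6 sgRNAs) in DMSO against T0 (adjusted p = 0.635, RRA). Without T0 replicate 1 these were −0.92 with GSI and −0.33 with DMSO, and without T0 replicate 2 they were −0.60 with GSI and −0.16 with DMSO. HGLibB_47523, steady at 173 and 179 counts at T0, had 56.6, 51.7 and 56.4 with GSI and 84.4, 124 and 67.2 with DMSO. HGLibA_47578 was the highest, at 3.47 ± 1.84 with GSI and 3.0 ± 2.14 with DMSO, from 0 and 8.54 counts at T0.

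SART3 (chromosome 12, 108522214 to 108561400) encodes the U4/U6 recycling factor and is no subunit of the SMN complex. Its mean counts were 25.3, 14.1 and 32.0 with GSI, 13.2, 15.9 and 14.4 with DMSO, and 128 and 93.6 at T0. All 6 cultures were below both aliquots, and the DMSO cultures lay close together. The fold change was −2.12 in GSI against T0 and −2.80 ± 2.41 (SD over 5 sgRNAs) in DMSO against T0, rank 20 from the lowest of 18570 genes (adjusted p = 0.147, RRA). Of its 5 tested sgRNAs, 4 lay under −1 in each contrast.

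HGLibB_42704 of SART3 had 9.43, 1.59 and 10.4 counts with GSI, 0, 0 and 11.4 with DMSO, and 182 and 99.6 at T0. HGLibA_42758 had 47.1, 41.3 and 32.4 counts with GSI, 30.7, 6.32 and 17.1 with DMSO, and 193 and 158 at T0. Both were below T0 in every culture. The exception was HGLibA_42757, nearly absent at T0 with 5.86 and 0.949 counts, whose fold was 2.67 ± 1.75 with GSI and 1.39 ± 2.29 with DMSO.

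**Figure D2:**
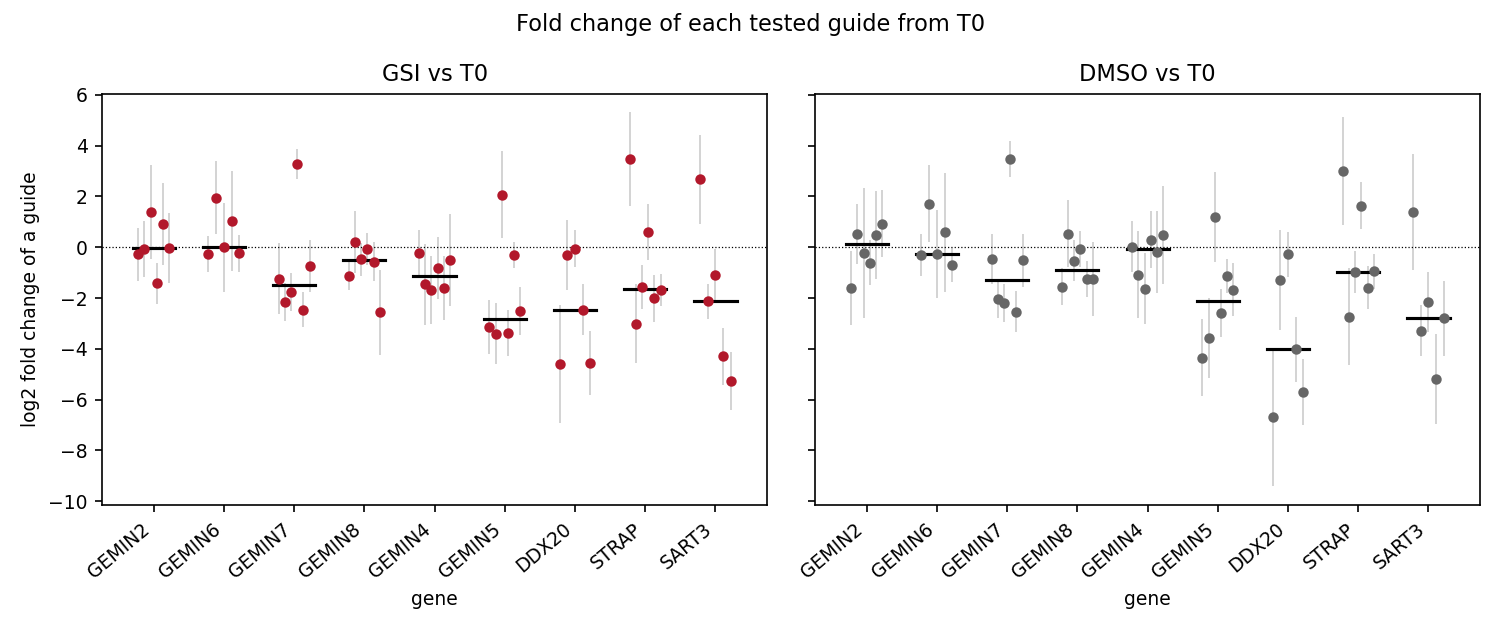
Log2 fold change of each tested sgRNA from T0, with GSI on the left and DMSO on the right. Points are sgRNAs with their SE from the edgeR fit and black bars are gene medians. The DDX20 median lies at −2.46 with GSI and −4.02 with DMSO, and 1 GEMIN7 sgRNA stands above 3 in both panels.

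Parts A and B of the library carry different sgRNAs for the same gene and were both lower for these genes at day 14 than at T0. Of the sgRNAs of part A, 13 of 26 lay under −1 in GSI against T0 and 13 of 26 in DMSO against T0, beside 15.4% and 18.9% of all part A sgRNAs. Of part B, 12 of 25 and 11 of 25 did, beside 16.9% and 16.8%. SgRNAs to 1 gene share their target and are not replicates of a condition. Both parts include sgRNAs of GEMIN5 and SART3, already known to be low in GSI against T0, and were not counted without them. The genes may have been selected on that contrast, and DMSO against T0 shares its T0 libraries. Similar counts in the 2 parts are therefore a description and no independent support.

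The comparison the screen was made for, GSI against DMSO, asks whether loss of a gene alters growth under the inhibitor. None of the 9 genes passed in either direction, with adjusted p of 0.973 and above (RRA of edgeR sgRNA tests). Over all 18569 genes 0 were called lower (0%) and 0 higher (0%), with 948 (5.11%) and 924 (4.98%) at an unadjusted p under 0.05. The median over the 9 genes was 0.03, with −0.02 over all genes, and 4 of 9 were negative, beside 52.7% of all genes. At an unadjusted p under 0.05 there were 0 of the 9 on the low side and 1 on the high side, DDX20. With DESeq2 sgRNA tests there was none on either side. Of 51 sgRNAs 5 lay under −1, beside 5.53% of all, and 9 lay over 1, beside 7.21%.

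DDX20 and SART3 had the highest medians, at 1.16 ± 0.70 (SD over 5 sgRNAs) and 1.06 ± 1.60, ranks 33 and 51 from the highest of 18569 genes (adjusted p = 0.973 each, RRA). All 5 DDX20 sgRNAs and 4 of 5 SART3 sgRNAs were positive, but several of these folds rest on few raw counts. HGLibB_12656, at 1.16 ± 1.86 (SE), gives the DDX20 median. It had 20, 0 and 8 raw counts with GSI and 0, 2 and 12 with DMSO. HGLibA_12668, at 2.09 ± 2.88, had 4, 1 and 0 with GSI and 0, 0 and 1 with DMSO. For SART3, HGLibB_42704 had 7, 2 and 10 with GSI and 0, 0 and 10 with DMSO. The negative SART3 sgRNA, HGLibB_42706, had 1, 7 and 3 with GSI and 0, 37 and 22 with DMSO. DDX20 levels relative to T0 were −1.56, −4.05 and −1.40 with GSI, against −4.26, −3.90 and −4.22 with DMSO, on the scale of log2 of the normalized count plus 1. GSI replicate 2 thus lay within the DMSO range, and replicates 1 and 3 above it. Without GSI replicate 1 the DDX20 median was −0.11. That replicate holds the VPS33B sgRNA and the fewest sgRNAs at 0, both among all sgRNAs and among the 54, where it had 0 and the other GSI libraries 1 each, against 4 to 6 in the DMSO libraries. The part of this difference in the result was not tested. SART3 levels were −2.77, −3.58 and −2.02 with GSI, against −3.64, −3.52 and −3.45 with DMSO, and also overlapped in GSI replicate 2. The SART3 median was 0.51 without GSI replicate 3 and 0.39 as a mean over its sgRNAs.

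GEMIN4 and STRAP had the lowest medians, at −0.68 ± 0.55 and −0.51 ± 0.52 (SD over 6 sgRNAs each), ranks 161 and 652 from the lowest (adjusted p = 0.981 and 0.983 on the low side, RRA). All 6 sgRNAs of GEMIN4 and 5 of 6 of STRAP were negative. The GEMIN4 value was −0.09 without DMSO replicate 2 and −0.36 without DMSO replicate 3. The STRAP value was −0.94 without GSI replicate 1, −0.24 without GSI replicate 2 and −0.25 without GSI replicate 3. GEMIN5 was at 0.50 ± 0.88, GEMIN6 at 0.27 ± 0.17, GEMIN8 at 0.03 ± 0.70, GEMIN2 at −0.08 ± 1.12 and GEMIN7 at −0.15 ± 0.41. Mean counts of every GSI culture lay below every DMSO culture for GEMIN2 and STRAP, beside 5.85% of all genes. For GEMIN5 every GSI culture lay above every DMSO culture, beside 3.7% of all genes. Its means weigh most on HGLibB_18892, the most abundant GEMIN5 sgRNA in each GSI culture. On the scale of median levels, all 9 genes overlapped between the arms, and GEMIN5 had the opposite order, with −2.81 ± 0.92 with GSI and −2.17 ± 0.63 with DMSO (SD, n = 3 each). The GEMIN5 fold change also turned negative without GSI replicate 3, to −0.20, and without GSI replicate 1, to −0.015.

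**Figure D3:**
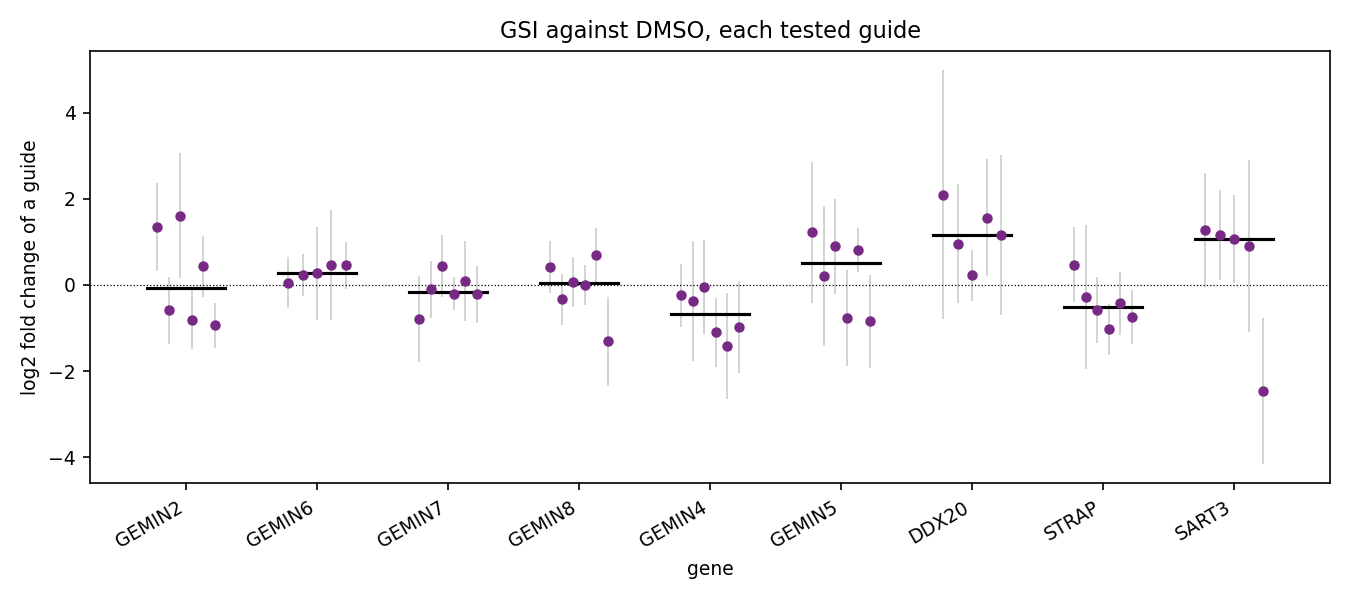
Log2 fold change of each tested sgRNA in GSI against DMSO. Points are sgRNAs with their SE from the edgeR fit and black bars are gene medians. Medians run from −0.68 for GEMIN4 to 1.16 for DDX20.

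The other steps of snRNP assembly were covered by 39 genes in 5 lists, none of which was called in either direction of DMSO against T0 or of GSI against DMSO. The Sm proteins, the cargo of the SMN complex, had a median over 7 genes of −1.62 in DMSO against T0. All 7 were negative and 21 of 36 tested sgRNAs lay under −1 (58.3%), beside 17.8% of all sgRNAs. At an unadjusted p under 0.05, 4 of 7 were on the low side, beside 6.26% of all genes. SNRPF, an Sm ring subunit, was at −3.35 with mean counts of 35.6, 38.6 and 21.7 with GSI, 20.2, 38.3 and 21.6 with DMSO, and 103 and 64.0 at T0 (adjusted p = 0.378, RRA). SNRPG, another ring subunit, was at −1.30 (adjusted p = 0.525, RRA).

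Genes for the snRNA cap, export and import had a median over 8 genes of −0.90 in DMSO against T0, and all 8 were negative. SNUPN, snurportin, which carries the assembled snRNP back to the nucleus, was at −1.33 ± 2.42 (SD over 6 sgRNAs, adjusted p = 0.303, RRA). NCBP1, the large subunit of the nuclear cap-binding complex, was at −1.25 (adjusted p = 0.640). Genes for snRNA transcription had a median over 5 genes of −0.59, with SNAPC5 at −1.68 (adjusted p = 0.618) and SNAPC3 at −1.14 (adjusted p = 0.964), both subunits of the complex that binds snRNA promoters.

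The U6 and tri-snRNP genes, the partners of SART3, had a median over 14 genes of −0.48, with 12 negative and 31 of 81 sgRNAs under −1 (38.3%), beside 17.8% of all sgRNAs. PRPF4, a U4/U6 protein, had the lowest p of the 39 genes on this side, with a median of −0.82 ± 5.23 (SD over 6 sgRNAs) while its sgRNAs ran from −9.14 to 7.35 (adjusted p = 0.146, RRA). LSM5, of the ring that binds U6, was at −1.45 (adjusted p = 0.618). The methylosome, which methylates Sm proteins and hands them to the SMN complex, had a median of −0.07 over 5 genes. Its chaperone CLNS1A was at −0.07 (adjusted p = 0.597) and RIOK1, an adaptor of PRMT5, at −1.26 (adjusted p = 0.845).

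In GSI against DMSO the median was 0.52 for the Sm proteins, 0.44 for cap and transport, 0.31 for snRNA transcription, 0.00 for U6 and tri-snRNP and −0.12 for the methylosome. All 5 snRNA transcription genes were positive, from 0.28 to 0.50. The level of the Sm protein sgRNAs relative to T0 was −1.28, −1.10 and −1.23 with GSI, against −1.65, −1.89 and −1.52 with DMSO, and did not overlap. That of the snRNA transcription sgRNAs was −0.31, −0.11 and −0.25 with GSI, against −0.89, −0.69 and −0.80 with DMSO, and did not overlap either. The sgRNAs of the 9 genes together lay at −0.92, −1.28 and −1.12 with GSI, against −1.29, −0.84 and −0.93 with DMSO, and overlapped. So did those of the methylosome, of cap and transport, and of U6 and tri-snRNP. How often other lists of such sizes separate in this way was not measured, and these differences between the arms were not tested.

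Single genes of these lists stayed far from the threshold between the arms. The lowest p on the high side were those of KPNB1, importin β, at 0.65, and of SNRPF at 0.68 (adjusted p = 0.973 each, RRA). On the low side they were those of USP4, a ubiquitin protease that SART3 recruits, at −0.16 (adjusted p = 0.978), and of PRMT5, the methyltransferase of the methylosome, whose median was nevertheless 0.59 (adjusted p = 0.980).

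**Figure D4:**
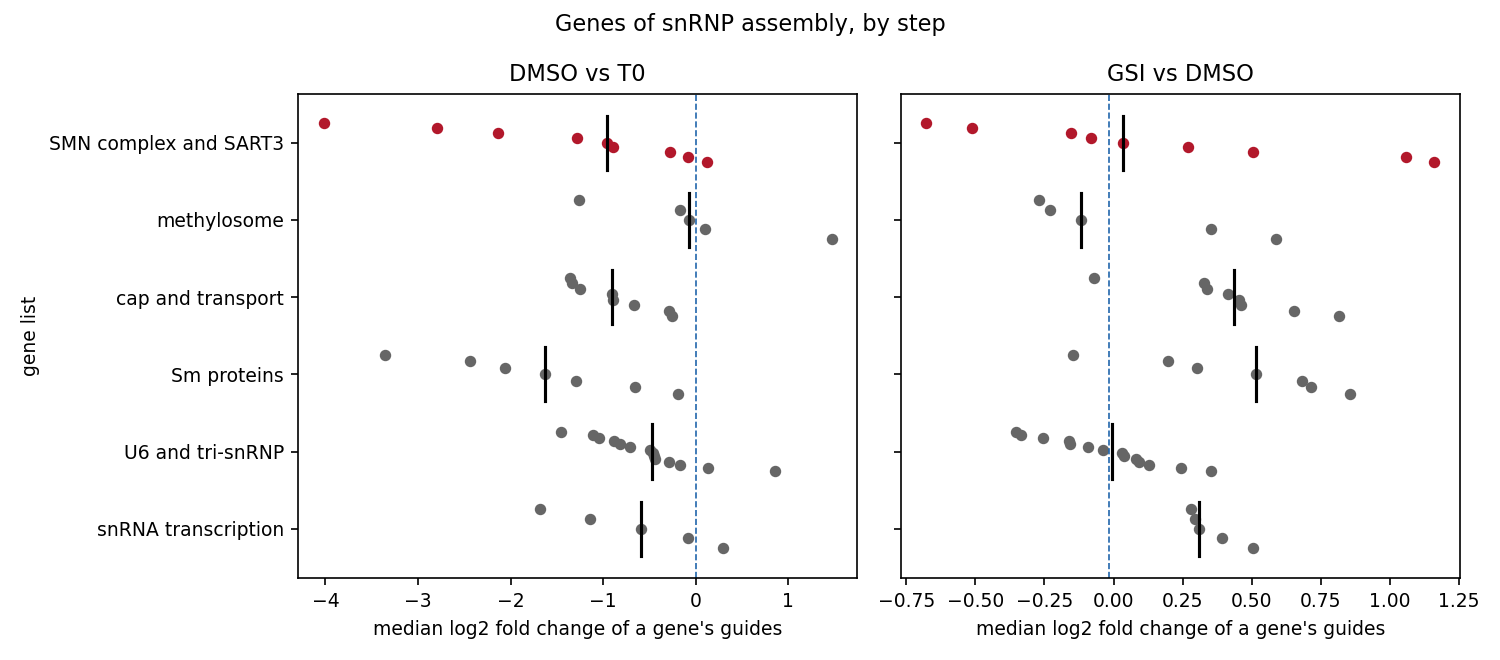
Gene medians of log2 fold change in DMSO against T0 on the left and GSI against DMSO on the right, by step of snRNP assembly. Points are genes, black bars are list medians and the dashed line is the median of all genes. In DMSO against T0 the Sm proteins lie around −1.62 and the 9 genes around −0.96, and the methylosome lies around −0.07.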

How the data were processed

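Genomic DNA of MB157R cells was amplified for its sgRNA cassettes and sequenced in 8 libraries (3 GSI, 3 DMSO and 2 T0). Per the labels, adapters were removed by the authors with bcl2fastq 2.19, read quality was inspected in FastQC 0.11.5 and sgRNAs were counted with MAGeCK 0.5.9.2, and the deposited table holds raw counts per sgRNA. The deposited normalized table is that table times 1 constant per library and was not used. SgRNA sequences were not analysed here, and the genome build of the library is not given in the sources used here. Gene positions are from GENCODE release 44 on GRCh38.

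SgRNAs averaging 10 or more raw counts across the libraries entered the fits, 116852 of 119461 (97.8%). Each pair of groups was fitted apart in edgeR 4.0.16 (glmQLFit and glmQLFTest, R 4.3.3) with median-ratio size factors. Genes with at least 4 tested sgRNAs were tested by RRA of one-sided sgRNA p-values (alpha 0.25, 1000000 random draws, low and high side apart, smallest possible p 1e-06), with Benjamini-Hochberg adjustment over all genes and calls at an adjusted p under 0.05. The fits and the RRA were run on simulated counts with a fixed dispersion that was not estimated from these libraries. That run does not show how the test performs at the spread of these data. Levels per library are medians of log2 of the normalized count plus 1. Reads of PCR products are not independent molecules, as no molecular identifiers were used, and depth limits the counting error alone.

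The 9 genes and the lists were chosen with earlier results of these data known, and the 2 lowest-p genes of each list on the low side of DMSO against T0, and the 2 on each side of GSI against DMSO over all lists, are named. The gene of the SMN protein has a near-identical copy, so its sgRNAs cannot be assigned to 1 gene and are not reported here. LSM8 is listed in the table under an older symbol. Alternatives were other scalings, count filters, DESeq2 1.42.0, a joint fit, a replicate block, another alpha, the mean over sgRNAs, another pseudocount and leaving out each library.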

Additional observations from a re-analysis of the deposited data

How the results depend on the processing

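None of the 9 genes that could be tested was called in either direction of DMSO against T0 or of GSI against DMSO under any alternative run. A stricter count filter (mean raw count of 50 or more) left 3 of the 9 to test, GEMIN7, GEMIN8 and STRAP. Genes called lower in DMSO against T0, 5 over all genes, numbered 0 under that filter and 3 in a joint fit of all libraries, and from 0 to 7 when 1 library was left out, with 0 without either T0 aliquot. The cause was not tested. Replicate numbers of GSI and DMSO cultures were checked as pairs. Deviations from the group means correlated at 0.280, 0.064 and 0.121 for equal numbers, and from −0.161 to 0.045 for unequal numbers. Each culture correlated best with its own number, a hint of pairing from the data. The labels name no batch shared by replicate number, so the main fit was not paired. With a replicate block the median over the 9 genes in GSI against DMSO was 0.07, with 0 genes called lower and 0 higher. Scaling to library totals moved the median of all genes in GSI against DMSO to −0.22, and that of the 9 genes to −0.20. Scaling to non-targeting controls moved the median of all genes in DMSO against T0 to −0.25 and that of the 9 genes to −1.22.

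Several medians changed sign, those of DDX20 and GEMIN5 in GSI against DMSO and of GEMIN8 in DMSO against T0 among them, and the cause was not tested. In DMSO against T0, GEMIN2 was at −0.12 with scaling to non-targeting controls, at −0.090 as a mean over sgRNAs, and from −0.21 to 0.30 with 1 library left out. GEMIN6 was at 0.15 with no count filter, at 0.20 as a mean, and from −0.68 to 0.19 with 1 library left out. The ranges were −1.04 to 0.37 for GEMIN4 and −0.92 to 0.41 for GEMIN8. In GSI against DMSO, GEMIN2 was at 0.17 as a mean and from −0.26 to 0.076 with 1 library left out, and GEMIN8 at −0.20 with library totals, at −0.079 as a mean and from −0.13 to 0.31. The ranges were −0.20 to 0.59 for GEMIN5, −0.078 to 0.62 for GEMIN6, −0.26 to 0.038 for GEMIN7 and −0.11 to 1.76 for DDX20. GEMIN5, GEMIN7, DDX20, STRAP and SART3 kept a negative median in DMSO against T0 under every alternative in which they were tested, which leaves out the stricter count filter for GEMIN5, DDX20 and SART3.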
